A study of Mus musculus with 16 samples.

Results

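The genes described here are 9 transcripts of the extracellular proteolysis machinery in sorted cardiac lymphatic endothelial cells. They are the secreted ADAMTS proteases Adamts1, Adamts4 and Adamts9, the ADAMTS-like gene Adamtsl3, the matrix metalloproteinases Mmp2 and Mmp14, and the tissue inhibitors of metalloproteinases Timp1, Timp2 and Timp3. They were chosen by symbol, and all 9 were found among the 15895 genes listed. Transcripts were measured by RNA sequencing in CD45-, CD31+, podoplanin+ cells of CD1 mouse hearts. The groups were MI P56 (myocardial infarction at postnatal day 56, by permanent ligation of a coronary artery), sham P56 (the same operation with no infarction), MI P1 (infarction at postnatal day 1) and sham P1, with 4 libraries each. All hearts were taken 3 days after surgery. The adults were males whose hearts were perfused with the digestion enzymes, whereas neonatal ventricles were pooled and agitated in the enzymes for longer, so age and preparation cannot be told apart. The labels do not say whether the libraries of a group came from separate animals or pools, and p-values measure the spread between these libraries.

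ADAMTS proteases are zinc endopeptidases that are secreted into the matrix, where several of them cut large proteoglycans such as versican. ADAMTS-like proteins have the ancillary domains of this family but no catalytic domain. Matrix metalloproteinases cleave collagens and other matrix proteins, and the membrane-anchored enzyme encoded by Mmp14 activates the gelatinase encoded by Mmp2, with the TIMP2 protein taking part. TIMPs bind the catalytic site of these enzymes, and the TIMP3 protein, which is retained in the matrix, also inhibits ADAMTS and ADAM proteases. Infarction starts matrix breakdown and rebuilding in the heart, processes in which these enzymes and inhibitors take part.

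Depth was 17103319 to 43837520 reads per library. In 3 libraries (MI P56 library 5, sham P1 library 1 and sham P1 library 2) only 7746 to 9451 genes had a read, against 14121 to 15821 genes in the other 13. Results are given from these 13 libraries (3 MI P56, 4 sham P56, 4 MI P1 and 2 sham P1). For the 9 genes they are given again with all 16 where that ended a call. Calls of single related genes and markers come from the 13 only, and whether they held with all 16 was not examined. In MI P56 library 5 the 9 genes had 1 to 43 reads each and in sham P1 library 2 they had 0 to 127, while sham P1 library 1 held the highest value of any library for Adamts1 (880.1), Adamts9 (111), Adamtsl3 (160.6) and Mmp14 (216.2), and had 0 reads of Timp1. Of the 13, sham P1 library 5 had 47.3% of its reads on 1 gene, Uqcrc1. It had 6709566 reads outside that gene and mitochondrial ribosomal RNA, the fewest of the 13. Calls of the 9 genes that change without it are named. Values are CPM with a further TMM scaling by the authors, and 3 reads corresponded to a value of 0.0489 to 0.109 in the 13 libraries. The labelled cell type was checked against its markers: 7 of 8 lymphatic endothelial markers, Prox1, Lyve1 and Flt4 among them, were listed and above 0 in each of the 13 libraries, with a summed value of 1066 to 2472 in MI P56, 1870 to 3228 in sham P56, 1636 to 2633 in MI P1 and 2086 to 3036 in sham P1. Markers of fibroblasts, macrophages, cardiomyocytes and other cells were also detected, some at high values, and their values are given beside the results they moved with. The fibroblast sum averaged 4992 in MI P56, 1693 in sham P56, 3463 in MI P1 and 3980 in sham P1. The lymphatic sum averaged 1724, 2505, 2071 and 2561 in the same order. The cardiomyocyte sum averaged 1814 in sham P56. Sums of different genes do not give shares of cells. In bulk RNA, a change in the share of cells that carry a transcript and a change in the amount per cell cannot be told apart.

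Promoter sequence from RefSeq (build GRCm38.p6) was matched by symbol for 7 of the 9 genes, and 4 are shown because their transcripts differed between groups below: Timp1 after infarction in adults, and Adamts1, Adamts9 and Timp3 with age. Each runs 5′ to 3′ on the strand of the gene, from 250 bases before the annotated start to 50 after it, and capitals mark matches to the GC box GGGCGG (or its reverse complement) and to the TATA box TATAAA. Timp1 is on the plus strand at chrX:20869916-20870215, Timp3 on the plus strand at chr10:86300162-86300461, Adamts1 on the minus strand at chr16:85803064-85803363 and Adamts9 on the minus strand at chr6:92943485-92943784.
Timp1: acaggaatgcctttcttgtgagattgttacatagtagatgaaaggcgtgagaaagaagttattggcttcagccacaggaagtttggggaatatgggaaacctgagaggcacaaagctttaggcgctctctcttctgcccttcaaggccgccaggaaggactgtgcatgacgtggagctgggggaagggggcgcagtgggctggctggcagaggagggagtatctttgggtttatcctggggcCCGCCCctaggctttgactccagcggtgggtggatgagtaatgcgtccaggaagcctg
Timp3: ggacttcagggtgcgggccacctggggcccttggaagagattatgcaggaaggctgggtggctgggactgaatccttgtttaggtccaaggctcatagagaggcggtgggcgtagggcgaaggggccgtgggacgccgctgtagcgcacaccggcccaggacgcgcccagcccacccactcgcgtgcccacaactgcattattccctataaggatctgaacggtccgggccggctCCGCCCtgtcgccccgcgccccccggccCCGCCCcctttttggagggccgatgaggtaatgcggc
Adamts1: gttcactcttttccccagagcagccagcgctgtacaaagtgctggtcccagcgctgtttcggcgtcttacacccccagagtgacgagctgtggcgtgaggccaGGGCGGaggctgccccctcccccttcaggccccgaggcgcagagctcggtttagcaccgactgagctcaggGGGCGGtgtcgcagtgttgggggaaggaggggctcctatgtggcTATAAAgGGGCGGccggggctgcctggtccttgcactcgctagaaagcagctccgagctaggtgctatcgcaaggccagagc
Adamts9: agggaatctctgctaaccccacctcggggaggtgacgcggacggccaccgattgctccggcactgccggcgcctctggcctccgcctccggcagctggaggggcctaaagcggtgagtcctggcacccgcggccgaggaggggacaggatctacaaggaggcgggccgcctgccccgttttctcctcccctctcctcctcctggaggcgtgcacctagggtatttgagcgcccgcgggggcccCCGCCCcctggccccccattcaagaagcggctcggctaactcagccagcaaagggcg
Each motif was searched on both strands, and no 2 matches overlapped. The GC box was found in 7 of the 7 promoters, against 62.3% of 11425 promoters of genes tested and 35.7% of all 32851 promoters of the table. The TATA box was found in 1 of the 7, that of Adamts1, against 7.29% of the promoters of genes tested and 13.6% of all. The AP-1 motif TGANTCA was in 0 of these 7 windows, against 5.16% of the promoters of genes tested and 7.81% of all. A match or its absence describes these letters only.

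The 9 genes fell into a few patterns across the 4 groups. Timp1 had its highest values in MI P56, Adamts1 and Adamts4 were lower at P56 than at P1 in sham and after MI, and Timp3 was higher at P56 in both. Adamts9 was lower at P56 after MI, and Adamtsl3 was lower at P56 in sham. Mmp2, Mmp14 and Timp2 passed the test in no comparison with the 13 libraries. A gene is called here when the adjusted p of limma (Benjamini-Hochberg, over all 13033 genes tested, two-sided) is under 0.05, and all 9 genes passed the filter on low values. Changes are on the log2(value + 1) scale, which understates the change of genes with low values.

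**Figure D1:**
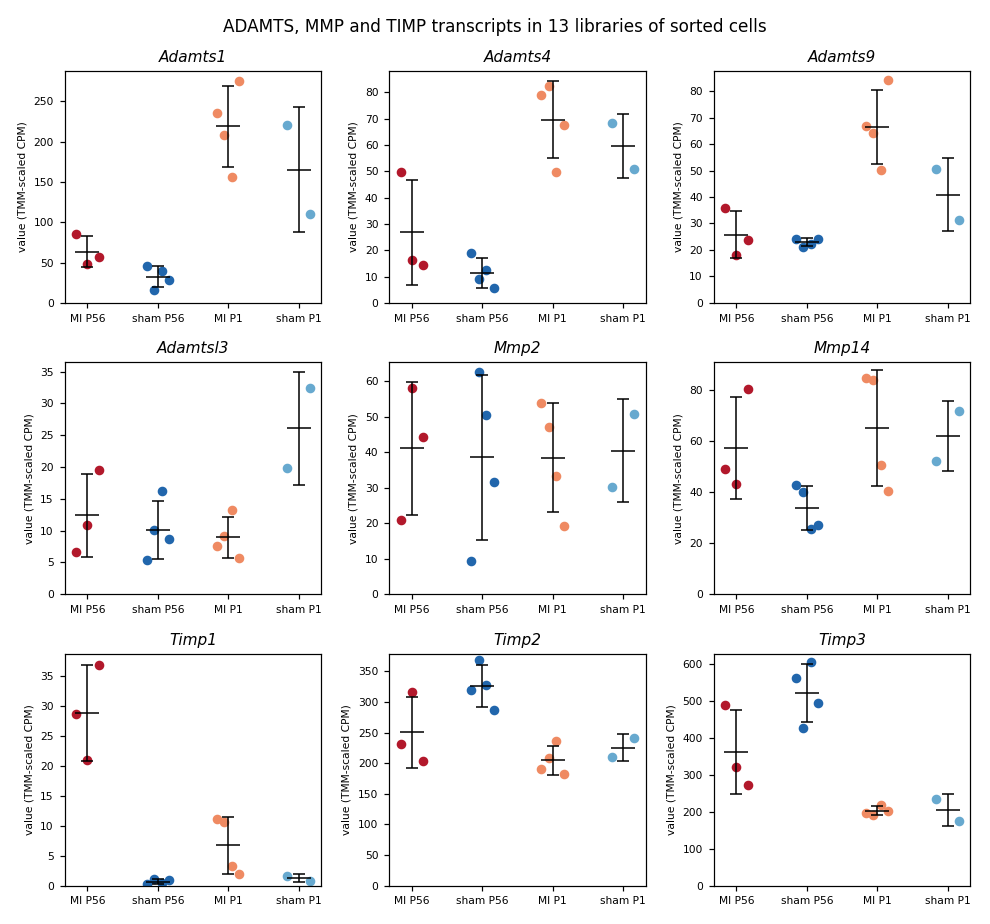
Value of each of the 9 genes (TMM-scaled CPM, y axis from 0) in the 13 libraries, by group; points are libraries, the horizontal bar is the mean and the whiskers are 1 SD. The 3 MI P56 libraries have Timp1 between 20.9 and 36.8, above every other library, and the P1 libraries have Adamts1 between 110.2 and 274.9, above every P56 library.

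Per kilobase of exon and as the mean of the 4 groups, Adamts1 (22.6 per kb) had the highest level of the ADAMTS family genes listed, and Adamts4 was at 8.71 and Adamts5, another aggrecanase gene, at 8.45 per kb. The order of these genes differed with age. In sham P56 Adamts5 was at 9.98 ± 5.87, Adamts1 at 6.06 ± 2.46 and Adamts4 at 2.39 ± 1.19 per kb (SD, n = 4). There Adamtsl1 (6.3 ± 1.54 per kb) also stood above Adamts1, and Adamts10 (3.93 ± 1.53 per kb) above Adamts4. In sham P1 Adamts1 was at 31.1 ± 14.7, Adamts4 at 12.4 ± 2.55 and Adamts5 at 9.61 ± 2.69 per kb (SD, n = 2). Adamts9 and Adamtsl3 lay lower, at 2.59 and 1.86 per kb. Mmp2 (11.7 per kb) and Mmp14 (9.14 per kb) had the highest levels of the 10 MMP family genes listed. Among the inhibitors, Timp2 was at 64.5, Timp3 at 39.6 and Timp1 at 10.5 per kb. Of the 9 genes, Timp1 had the largest ratio between its highest and lowest group, at 32.4 ± 8.96 per kb in MI P56, 0.795 ± 0.434 in sham P56, 7.58 ± 5.40 in MI P1 and 1.43 ± 0.697 in sham P1 (SD, n = 3, 4, 4 and 2).

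Timp1, which encodes a secreted inhibitor of most MMPs (chromosome X, 20870166 to 20874735, GRCm38 as listed by the authors), was the gene among the 9 that rose after adult infarction. Its values were 28.55, 20.89 and 36.80 in MI P56, against 0.3586, 1.164, 0.416 and 0.8846 in sham P56. The groups did not overlap, and the lowest MI P56 library stood above every library of the other 3 groups. The means were 28.7 ± 7.96 (SD, n = 3) in MI P56 and 0.706 ± 0.386 (n = 4) in sham P56, a ratio of 40.7. The reads behind these values were 969 to 2260 per library in MI P56 and 16 to 52 in sham P56. On the log2 scale the difference was 4.12 ± 0.445 (SE; 95% interval 3.18 to 5.05; limma adjusted p = 4.98e-05), the fifth smallest p of the 13033 genes. With all 16 libraries it was 3.50 (limma adjusted p = 0.0207).

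At P1, Timp1 was at 11.15, 10.55, 3.265 and 1.946 in MI P1, against 1.709 and 0.8332 in sham P1. The 4 MI P1 libraries lay above both sham P1 libraries, the lowest by little, and spread over a wide range. The means were 6.73 ± 4.80 (SD, n = 4) in MI P1 and 1.27 ± 0.619 (n = 2) in sham P1, and the log2 difference of 1.54 ± 0.505 did not pass the test (95% interval 0.483 to 2.60; unadjusted p = 0.00659; limma adjusted p = 1). The test of the difference between the responses at P56 and at P1 gave 2.58 ± 0.673 for Timp1 (95% interval 1.17 to 3.99; limma adjusted p = 0.101). That difference was called by DESeq2 on the recovered reads (2.97, DESeq2 adjusted p = 0.0233) and by limma without sham P56 library 2 (2.70, limma adjusted p = 0.0397). With all 16 libraries it was 1.39 (limma adjusted p = 0.574).

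Between ages, Timp1 was higher in MI P56 than in MI P1 by 2.16 ± 0.445 on the log2 scale (limma adjusted p = 0.00657), and no MI P56 library overlapped with MI P1. This call was lost with all 16 libraries (1.55, limma adjusted p = 0.647). In sham hearts the ages overlapped, and the difference of -0.41 ± 0.505 was not called (limma adjusted p = 0.652). In order of mean level, MI P56 came before MI P1, sham P1 and sham P56. Of these neighbours, MI P1 and sham P1 were not called different, and neither were sham P1 and sham P56.

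In the adult comparison Timp1 was higher together with some markers of other cell types. The summed value of 8 fibroblast markers (Dcn, Lum, Pdgfra, Col1a1, Col1a2, Col3a1, Tcf21 and Dpt, each above 0 in all 13 libraries) was 2928 to 6397 in MI P56 and 709.5 to 3099 in sham P56, and 3 of the 8 were called higher. The collagen genes held most of this difference. In MI P56 and sham P56, Col1a1 averaged 1440 and 147, Col1a2 1080 and 206, and Col3a1 1450 and 304. Lum averaged 185 and 139, Pdgfra 82.7 and 56.5, Dpt 139 and 98.3, Tcf21 5.04 and 5.13, and Dcn 613 and 738. The summed value of the 6 listed of 8 macrophage and monocyte markers was 16.5 to 85.0 in MI P56 and 5.35 to 9.19 in sham P56, with 2 of 5 tested called higher and 1 of the 6 at 0 in sham P56 library 2. Their part in the Timp1 difference was not tested. The fibroblast sums of MI P56 and sham P56 overlapped, the macrophage sums did not, and Timp1 did not. The 5 neutrophil markers were not analysed here.

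**Figure D2:**
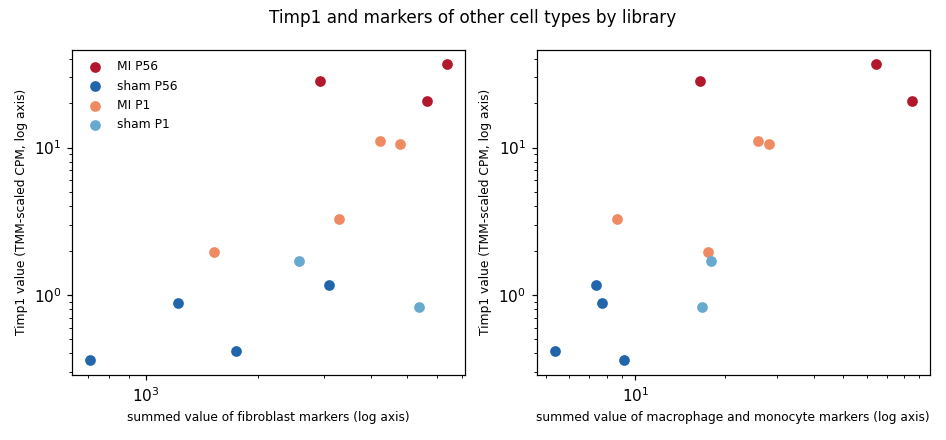
Timp1 value (y, TMM-scaled CPM, log axis) against the summed value of fibroblast markers (left, x, log axis) and of macrophage and monocyte markers (right, x, log axis); each point is 1 of the 13 libraries, coloured by group. The fibroblast sums lie between 2928 and 6397 in MI P56 and between 709.5 and 3099 in sham P56, and Timp1 lies between 20.9 and 36.8 in MI P56 and between 0.359 and 1.16 in sham P56.

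Timp3, the gene of the matrix-bound inhibitor (chromosome 10, 86300372 to 86349506), was higher in adult than in neonatal cells. It was at 562.7, 425.6, 605.4 and 493.4 in sham P56, against 236.1 and 174.9 in sham P1, with no overlap. The log2 difference in sham was 1.34 ± 0.251 (95% interval 0.818 to 1.87; limma adjusted p = 0.00121). After MI, Timp3 was at 489.1, 321.7 and 272.5 in MI P56, against 197.5, 191.1, 219.6 and 202.8 in MI P1, again with no overlap, and the difference was 0.79 ± 0.221 (limma adjusted p = 0.0419). With all 16 libraries both calls were lost (0.73, limma adjusted p = 0.253 in sham, and 0.56, limma adjusted p = 0.962 after MI). The call in sham was also lost without sham P1 library 5 (1.13, limma adjusted p = 0.054), and that after MI with edgeR and without MI P56 library 1 or 2, sham P56 library 5 or any 1 of the 4 MI P1 libraries (0.546 to 0.848, limma adjusted p of 0.0551 to 0.229). The 4 MI P1 libraries lay within a narrow range, and sham P1 lay on either side of it.

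Within adults, Timp3 averaged 361 ± 114 (SD, n = 3) in MI P56 and 522 ± 79.0 (n = 4) in sham P56, and MI P56 library 1 lay inside the sham range. The log2 difference of -0.56 ± 0.221 was not called (limma adjusted p = 0.183). Timp2, whose protein also takes part in the activation of proMMP2 (chromosome 11, 118301069 to 118355740), was at 231.8, 315.3 and 203.3 in MI P56 and at 319.6, 369.0, 327.0 and 287.5 in sham P56. Here too 1 MI P56 library lay within the sham range (-0.40 ± 0.200, limma adjusted p = 0.322). In the neonates Timp2 was at 190.1, 208.5, 236.7 and 182.4 in MI P1 and at 209.5 and 240.6 in sham P1. Every sham P56 library was above both sham P1 libraries, and the log2 difference of 0.53 ± 0.227 was not called (limma adjusted p = 0.137).

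The make-up of the TIMP reads followed these levels. Timp1 made up 4.68% ± 2.16 (SD, n = 3) of the reads on Timp1 to Timp4 in MI P56 and 0.0828% ± 0.0484 (n = 4) in sham P56. In neonates it made up 1.64% ± 1.21 (n = 4) in MI P1 and 0.29% ± 0.128 (n = 2) in sham P1. Timp3 took 55.2% ± 8.33 in MI P56, 59.6% ± 6.33 in sham P56, 48.9% ± 2.60 in MI P1 and 47.2% ± 7.61 in sham P1, so that Timp2 and Timp3 together held most TIMP reads in every group. These shares are not corrected for transcript length.

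**Figure D3:**
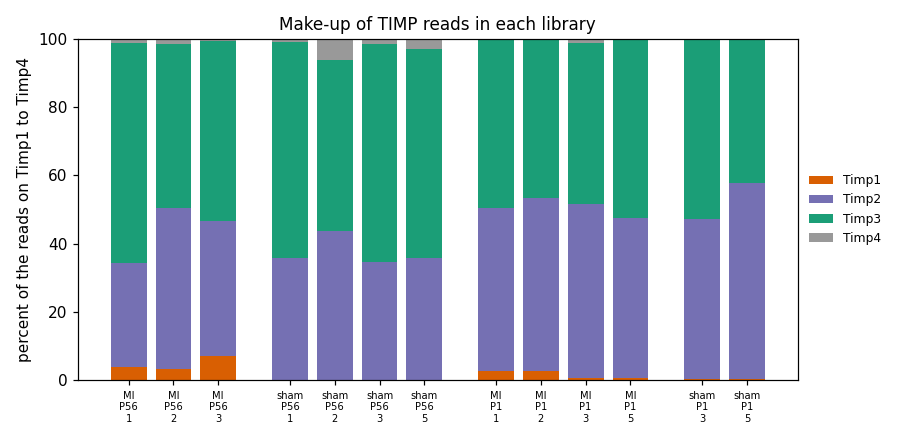
Percent of the reads on Timp1, Timp2, Timp3 and Timp4 that fell on each gene (y axis, 0 to 100%), in each of the 13 libraries, by group; bars are single libraries and have no error bars. Timp1 takes 3.13% to 7.14% in the MI P56 libraries and 0.0402% to 0.137% in the sham P56 libraries.

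Adamts1, which encodes a secreted protease that cuts versican and aggrecan (chromosome 16, 85793827 to 85803113), was lower in adult cells. It was at 45.34, 15.57, 39.00 and 28.54 in sham P56, against 220.0 and 110.2 in sham P1. After MI it was at 85.97, 48.60 and 56.22 in MI P56, against 235.9, 208.5, 156.1 and 274.9 in MI P1. The ages did not overlap in either condition. The log2 differences were -2.34 ± 0.367 in sham (95% interval -3.11 to -1.58; limma adjusted p = 0.000256) and -1.78 ± 0.323 after MI (-2.46 to -1.10; limma adjusted p = 0.00252). The call in sham held under each of the 24 alternatives run, with differences of -2.84 to -1.85, and the call after MI was lost in 1 of 24, the fit of all 16 libraries (-1.53, limma adjusted p = 0.559).

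Within adults, every MI P56 library had more Adamts1 than every sham P56 library, with means of 63.6 ± 19.8 (SD, n = 3) and 32.1 ± 13 (n = 4), a ratio of 1.98. The log2 difference of 1.02 ± 0.323 did not pass the test (95% interval 0.346 to 1.70; limma adjusted p = 0.088), and it passed without sham P56 library 1 (1.22, limma adjusted p = 0.0489). In neonates the groups overlapped, with means of 219 ± 49.9 (n = 4) in MI P1 and 165 ± 77.7 (n = 2) in sham P1 (0.46 ± 0.367, limma adjusted p = 1).

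Adamts4, the gene of an aggrecanase that also cuts versican (chromosome 1, 171250421 to 171260637), had a like pattern at lower levels. It was at 18.96, 8.899, 12.54 and 5.631 in sham P56, against 68.22 and 50.90 in sham P1. It was at 49.65, 16.17 and 14.45 in MI P56, against 78.91, 82.35, 49.85 and 67.60 in MI P1. The ages did not overlap, although MI P56 library 1 came within 1 unit of the lowest MI P1 library. The log2 differences were -2.38 ± 0.429 in sham (limma adjusted p = 0.000929), called under each of the 24 alternatives, and -1.55 ± 0.378 after MI (limma adjusted p = 0.0201). The call after MI was lost with all 16 libraries (limma adjusted p = 0.233), with edgeR (edgeR adjusted p = 0.0944) and without MI P56 library 2 or 3 or MI P1 library 1 or 2 (limma adjusted p of 0.0589 to 0.132). Between MI P56 and sham P56 the groups overlapped, and the difference of 1.04 ± 0.378 was not called (limma adjusted p = 0.147).

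Adamts9, which encodes a large protease of the versican-cutting group (chromosome 6, 92772699 to 92943492), was lower in adult cells after infarction. It was at 35.66, 18.22 and 23.55 in MI P56, against 66.69, 64.24, 50.20 and 84.33 in MI P1, with no overlap and a log2 difference of -1.36 ± 0.248 (95% interval -1.88 to -0.838; limma adjusted p = 0.00261). The call was lost with all 16 libraries (-1.41, limma adjusted p = 0.307). In sham it was at 24.07, 21.06, 22.29 and 24.22 in sham P56, a narrow range, against 50.56 and 31.26 in sham P1. These groups did not overlap either, and the difference of -0.77 ± 0.282 was not called by limma (limma adjusted p = 0.0785) but was by DESeq2 (-0.86, DESeq2 adjusted p = 0.0412). In neonates Adamts9 averaged 66.4 ± 14.0 (SD, n = 4) in MI P1 and 40.9 ± 13.6 (n = 2) in sham P1 (0.70 ± 0.282, limma adjusted p = 1).

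Adamtsl3, an ADAMTS-like gene with no protease domain (chromosome 7, 82335694 to 82614450), differed from the 3 proteases in having its highest level in sham P1. It was at 5.357, 10.14, 16.26 and 8.761 in sham P56, against 19.85 and 32.39 in sham P1, with no overlap and a log2 difference of -1.34 ± 0.421 (limma adjusted p = 0.041). This call was lost in 11 of 24 alternatives, with values of -1.83 to -0.996, among them the fit of all 16 libraries (limma adjusted p = 0.0744), edgeR (edgeR adjusted p = 0.0577) and the fits without MI P56 library 2, sham P56 library 1 or 5, or MI P1 library 1 or 2 (limma adjusted p of 0.052 to 0.0899). It was lost too without sham P1 library 5 (-0.996, limma adjusted p = 0.394) or sham P1 library 3 (-1.68, limma adjusted p = 0.0819). Both sham P1 libraries also lay above the MI P1 values of 7.605, 9.232, 13.21 and 5.692, and the difference of -1.46 ± 0.421 was not called (unadjusted p = 0.00254; limma adjusted p = 0.887). MI P56 and MI P1 overlapped.

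Mmp2, the gene of a gelatinase (chromosome 8, 92827291 to 92853420), varied within groups and overlapped in each of the 4 pairwise comparisons. It was at 20.93, 58.04 and 44.17 in MI P56 and at 9.279, 62.63, 50.47 and 31.71 in sham P56. In neonates it was at 53.96, 47.00, 33.37 and 19.30 in MI P1 and at 30.25 and 50.64 in sham P1. The group means lay between 38.4 and 41.0, and the 95% intervals of the log2 differences ran from -0.763 to 1.28 between MI P56 and sham P56 and from -1.29 to 1.04 between MI P1 and sham P1. A 2-fold higher level lay within both intervals, and a 2-fold lower one within the interval at P1.

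Mmp14, the gene of the membrane-anchored MT1-MMP (chromosome 14, 54431612 to 54441265), was at 48.85, 43.04 and 80.14 in MI P56, against 42.56, 39.84, 25.69 and 27.01 in sham P56. The groups did not overlap, by a small gap between 43.04 and 42.56, and the log2 difference of 0.73 ± 0.290 was not called (95% interval 0.122 to 1.33; limma adjusted p = 0.188). It was at 84.73, 83.77, 50.72 and 40.45 in MI P1 and at 52.14 and 71.58 in sham P1, which overlapped. Both sham P1 libraries stood above all 4 sham P56 libraries (-0.87 ± 0.328, limma adjusted p = 0.0897), and this difference was called without sham P56 library 2 (-0.96, limma adjusted p = 0.0494).

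Between MI P56 and sham P56, 1 of the 9 genes was called higher (Timp1) and 0 lower, where 2.36% of all genes were called higher and 1.07% lower. At an unadjusted p under 0.05 there were 2235 of 13033 genes and 5 of the 9, and 0 were called lower by limma, edgeR or DESeq2. With 16 libraries Timp1 was again the gene called, where 0.174% of all genes were. The groups did not overlap in 3 of the 9 genes, all higher in MI P56 (Adamts1, Mmp14 and Timp1), where this held for 8% of all genes higher and 5.79% lower. The median log2 difference of the 9 genes was 0.26, against 0.01 for all genes.

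Related genes of the same families were also called in the adult comparison. Of 22 tested ADAMTS and ADAMTSL genes, 2 were higher and 1 lower: Adamts6 averaged 9.91 ± 2.73 in MI P56 and 2.65 ± 0.550 in sham P56 (limma adjusted p = 0.00594), Adamts2, the gene of a procollagen N-propeptidase, 54.6 ± 22.3 in MI P56 and 17.2 ± 8.59 in sham P56 (limma adjusted p = 0.0304), and Papln, the gene of papilin, 0.824 ± 0.547 in MI P56 and 3.74 ± 0.524 in sham P56 (limma adjusted p = 0.0244; SD, n = 3 MI P56 and 4 sham P56, as for the next genes). Of 8 tested MMP genes, Mmp19 and Mmp16 were higher and the membrane-type Mmp15 was lower, at 1.54 ± 1.34 in MI P56 and 6.32 ± 2.03 in sham P56 (limma adjusted p = 0.0322). Of the 6 tested inhibitors 1 was called, Timp1 itself.

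Substrates and neighbouring protease systems were examined as lists. Vcan, which encodes the ADAMTS substrate versican, was at 451 ± 111 in MI P56 and 142 ± 87.8 in sham P56 (1.85 ± 0.410, limma adjusted p = 0.0149), 1 of 2 tested hyalectan and link protein genes. Of 11 fibrillin microfibril genes 5 were higher and 0 lower, Fbn1 among them at 714 ± 213 in MI P56 and 286 ± 88.7 in sham P56 (limma adjusted p = 0.00704), with a list median of 1.33. Of 9 plasminogen activator system genes 2 were higher and 0 lower. Of 6 cathepsins Ctsk, the gene of the collagen-cutting cathepsin K, was higher (1.77 ± 0.363, limma adjusted p = 0.00807). In the lists of 8 ADAM sheddases, 6 proprotein convertases and clearance receptors, and 4 tested tolloid proteases and enhancers, 0 genes were called by limma. Besides some fibroblast and macrophage markers, the cardiomyocyte markers moved in this comparison, with all 8 called lower. Their summed value was 320.4 to 565.5 in MI P56 and 1269 to 2305 in sham P56. The blood endothelial sum was 171.1 to 353.7 in MI P56 and 370.6 to 759 in sham P56, with 2 of 8 called lower. Pericyte and smooth muscle markers summed to 194.3 to 327.1 in MI P56 and 401.7 to 1049 in sham P56, with 1 of 7 called higher and 1 lower. Rgs5 held most of this sum, at 207 in MI P56 and 638 in sham P56. Kcnj8 and Myh11 were also lower in MI P56 (5.4 and 2.62, against 11.4 and 5.56). Acta2, Pdgfrb, Notch3 and Cspg4 were higher (24.2, 27.9, 13 and 1.96, against 2.97, 17.8, 9.45 and 1.61). The list median was 0.0158, and 0 mesothelial or lymphatic markers were called by limma. The part of these cell types was not tested.

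**Figure D4:**
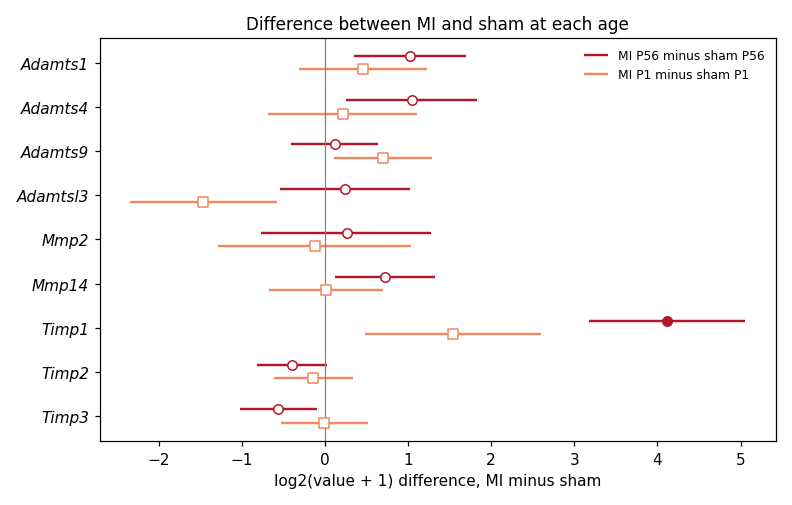
Difference in log2(value + 1) between MI and sham for the 9 genes (x axis, MI minus sham), at P56 (red circles) and at P1 (orange squares), with 95% intervals from limma; filled symbols are called, open symbols are not. The Timp1 interval at P56, 3.18 to 5.05, lies apart from those of the other 8 genes.

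Between MI P1 and sham P1, 0 of the 9 genes were called, where 0% of all genes were called higher and 0% lower, also with 16 libraries (0%). At an unadjusted p under 0.05 there were 485 of 13033 genes and 3 of the 9 (Adamts9, Adamtsl3 and Timp1). On the recovered reads edgeR called 0 genes and DESeq2 called 7, of which 0 were among the 9. The groups did not overlap in 1 gene higher in MI P1 (Timp1) and 1 lower (Adamtsl3), where this held for 8.89% of all genes higher and 7.27% lower. In the 10 lists of related genes and the marker lists 0 were called at P1 by limma. The blood endothelial marker sum was 138.3 to 269.4 in MI P1 and 99.8 to 127.9 in sham P1. The mesothelial sum was 51.9 to 91.4 in MI P1 and 24.8 to 41.7 in sham P1, and neither overlapped. The fibroblast sums overlapped, at 1525 to 4792 in MI P1 and 2578 to 5382 in sham P1, with a list median of -0.66. In MI P1 and sham P1, Dcn averaged 268 and 540, Lum 87.9 and 209, and Dpt 104 and 211. Tcf21 averaged 6.26 and 15.1, Pdgfra 52.5 and 67.5, and Col3a1 1070 and 1160. Col1a1 and Col1a2 went the other way, at 1110 and 760 in MI P1 and 1060 and 711 in sham P1. The part of these cell types in the differences was not tested. The 95% interval of the log2 difference of Adamts4, for example, ran from -0.686 to 1.11.

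In the test of the difference between the responses, MI minus sham at P56 against MI minus sham at P1, 0 of the 9 genes were called by limma or edgeR and 1 (Timp1) by DESeq2, where 0.322% of all genes were called with a higher and 0.161% with a lower response at P56 by limma. At an unadjusted p under 0.05 there were 1421 of 13033 genes and 2 of the 9, Timp1 and Adamtsl3 (1.71 ± 0.561, limma adjusted p = 0.199). With 16 libraries 0.00755% of all genes were called, and 0 of the 9. Of the related genes, Mfap5 (3.19 ± 0.629, limma adjusted p = 0.0331), which encodes a microfibril protein, and Ctsk (2.70 ± 0.548, limma adjusted p = 0.036) had a higher response at P56, as had 1 gene of the plasminogen activator system list, and 0 genes of the lists had a lower one. These calls rest on the 13 libraries. Limma called 1 of 13243 genes with all 16 libraries, so at most 1 of these calls could hold there. Mfap5 was at 24.8 and 73.4 in sham P1 (n = 2). Of the markers, 1 macrophage marker had a higher response at P56, and 3 cardiomyocyte markers and 1 blood endothelial marker had a lower one, whose part was not tested.

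Between sham P56 and sham P1, 1 of the 9 genes was called higher (Timp3) and 3 lower (Adamts1, Adamts4 and Adamtsl3), where 5.89% of all genes were called higher and 7.28% lower. With 16 libraries 2 were called, Adamts1 (-2.55, limma adjusted p = 0.0183) and Adamts4 (-2.21, limma adjusted p = 0.00712), where 3.91% of all genes were. The groups did not overlap in 2 genes higher at P56 (Timp2 and Timp3) and 5 lower (Adamts1, Adamts4, Adamts9, Adamtsl3 and Mmp14), against 16.3% of all genes higher and 16.7% lower. The median log2 difference of the 9 genes was -0.77, against 0.00 for all genes.

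Between MI P56 and MI P1, 2 of the 9 were called higher (Timp1 and Timp3) and 3 lower (Adamts1, Adamts4 and Adamts9), where 2.09% of all genes were called higher and 3.26% lower. With 16 libraries 0 of the 9 were called by limma, where 0.106% of all genes were. The same 5 genes were those whose groups did not overlap, 2 higher and 3 lower, against 9.44% of all genes higher and 11.2% lower.

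**Figure D5:**
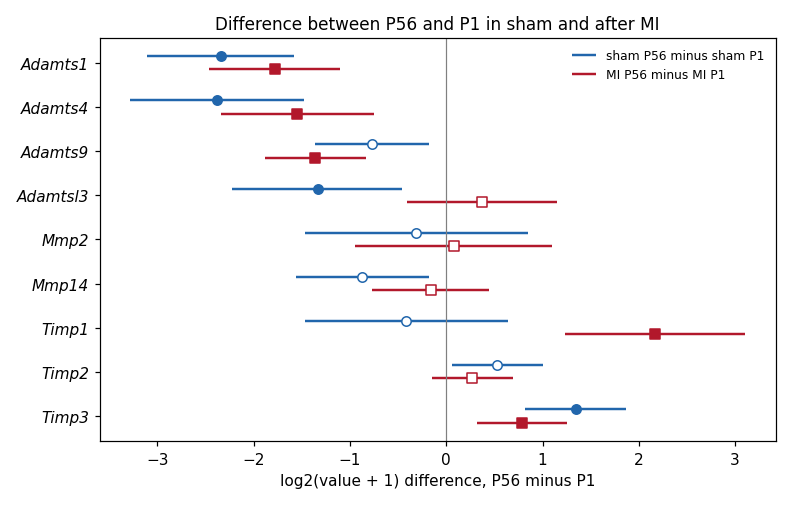
Difference in log2(value + 1) between P56 and P1 for the 9 genes (x axis, P56 minus P1), in sham (blue circles) and after MI (red squares), with 95% intervals from limma; filled symbols are called, open symbols are not. Adamts1 and Adamts4 lie below 0 in both, Timp3 above 0 in both, and Timp1 lies above 0 after MI with an interval of 1.23 to 3.10.

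Of the related genes in sham, 6 of 22 tested ADAMTS and ADAMTSL genes were lower at P56 and 1 higher. Beside the 3 named above, these were Adamts19, Adamts14 and Adamts17, and the higher one was Adamtsl1, at 80.5 ± 19.6 (SD, n = 4) in sham P56 and 35.9 ± 12.8 (n = 2) in sham P1 (limma adjusted p = 0.0267). Timp4, the gene of a TIMP known from heart muscle, was higher like Timp3, at 25.2 ± 18.4 (n = 4) in sham P56 and 1.70 ± 0.0512 (n = 2) in sham P1 (3.02 ± 0.647, limma adjusted p = 0.00355). Of the ADAMTS substrates, Vcan was lower, at 142 ± 87.8 in sham P56 and 386 ± 205 in sham P1 (limma adjusted p = 0.0331), as was Hapln1, the gene of a protein that links such proteoglycans to hyaluronan, at 1.89 ± 0.653 in sham P56 and 12.0 ± 1.40 in sham P1 (limma adjusted p = 0.000545). Mmp16 was the 1 of 8 MMP genes called, lower at P56 (-2.85 ± 0.479, limma adjusted p = 0.000512).

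In the other lists in sham, 1 ADAM sheddase was higher (Adam15) and 1 lower (Adam19), 1 microfibril gene was higher (Ltbp4) and 2 lower (Fbn2 and Mfap2), and 1 plasminogen system gene was higher (Plgrkt) and 3 lower (Plat and Plau among them). Pcolce2, an enhancer of procollagen processing, was higher and Ctsk was lower, and 0 of 6 proprotein convertase genes were called. After MI, 1 ADAMTS gene was higher (Adamts6) and 5 lower (Adamts19 and Adamts17 beside the 3 above), Mmp15 was lower (-1.69 ± 0.406, limma adjusted p = 0.0177), and Hapln1 was lower at 1.08 ± 0.860 (n = 3) in MI P56 and 12.0 ± 1.37 (n = 4) in MI P1 (limma adjusted p = 6e-05). Also after MI, 2 microfibril genes were higher (Mfap5 and Ltbp2) and 2 lower (Fbn2 and Mfap2), 0 plasminogen system genes were higher and 2 lower (Plau and Plat), and Pcolce2 was higher (2.48 ± 0.50, limma adjusted p = 0.00562), while 0 ADAM sheddases, cathepsins or proprotein convertases were called by limma.

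Markers of other cell types moved with age in sham as well. All 8 cardiomyocyte markers were called higher, with a summed value of 1269 to 2305 in sham P56 and 147.3 to 223.5 in sham P1, as were 6 of 8 blood endothelial markers, with 370.6 to 759 in sham P56 and 99.8 to 127.9 in sham P1. Of the 8 fibroblast markers 3 were called lower, with 709.5 to 3099 in sham P56 and 2578 to 5382 in sham P1. Their median log2 difference was -1.36. The collagen genes held most of the difference in sums, with Col1a1 at 147 in sham P56 and 1060 in sham P1. Dcn went the other way, at 738 in sham P56 and 540 in sham P1. Macrophage and monocyte markers summed to 5.35 to 9.19 in sham P56 and 16.7 to 17.9 in sham P1, with 1 of 5 tested called lower. Cd68 held most of the sum in sham P1, at 12.8 against 0.766 in sham P56. Adgre1 and Itgam were also lower in sham P56 (0.211 and 0.156, against 0.614 and 1.12). Csf1r, Lyz2 and Ptprc were higher in sham P56 (2.31, 3.04 and 0.939, against 0.887, 1.6 and 0.307). The median log2 difference of the tested markers was 0.557. Pericyte and smooth muscle markers summed to 401.7 to 1049 in sham P56 and 92.8 to 215.4 in sham P1, with 2 of 7 called higher. Rgs5 held most of this sum, at 638 in sham P56 and 112 in sham P1. Acta2, Cspg4 and Notch3 were lower in sham P56 (2.97, 1.61 and 9.45, against 9.86, 4.42 and 15.4), and Pdgfrb, Kcnj8 and Myh11 were higher. The list median was 0.157. Of the 7 lymphatic markers 1 was called higher, with a list median of -0.0795. In sham P56 and sham P1, Itga9 averaged 156 and 75.5, Flt4 541 and 357, and Reln 396 and 356. Prox1, Lyve1, Pdpn and Mmrn1 had lower means in sham P56. Of 6 mesothelial markers 0 were called by limma. The part of all these markers in the age differences of the ADAMTS genes and Timp3 was not tested. After MI, 1 cardiomyocyte marker and 1 macrophage marker were higher and 1 mesothelial marker was lower at P56, and 0 blood endothelial and 0 fibroblast markers were called by limma.

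Across the 13 libraries the log2 values of Adamts1 ran with those of Adamts4 (r = 0.944) and Adamts9 (r = 0.914), and opposite to those of Timp2 (r = -0.877). These r values describe libraries that share age groups and preparation. Of the 6101 genes compared, the 3 most like Adamts1 were Fosl2 (r = 0.978), Col18a1 (0.971) and Btg1 (0.970). For Adamts4 they were Bcl10 (0.952), Adamts1 itself and Fosl2 (0.941), and for Adamts9 they were Maff (0.947), Zfp664 (0.924) and Rel (0.923). Timp1 was most like Runx1 (0.899), Spp1 (0.897) and Lox (0.885). Timp2 was most like Klf9 (0.966), Arhgef10 (0.930) and the myosin gene Myh7 (0.919). Timp3 was most like the lymphatic marker Itga9 (0.973), Mtus1 (0.967) and Cyp4b1 (0.967). For Mmp2 they were Tfe3 (0.929), Pcdh18 (0.892) and Lamc1 (0.872), and for Mmp14 Angptl4 (0.900), Ptpn23 (0.885) and Tead1 (0.876). Adamtsl3 had the least close neighbours, Psd3 (0.881), Snai2 (0.841) and the fibroblast marker Dpt (0.828).

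Some of the genes overlap others on the genome, and whether counting used strand is not given in the sources used here, so reads of the overlaps cannot be assigned with certainty. Timp1 overlaps Syn1 on the opposite strand, and Syn1 had at most 186 reads in any library, against 969 to 2260 for Timp1 in MI P56, 16 to 52 in sham P56, 107 to 635 in MI P1 and 23 to 81 in sham P1. Timp3 overlaps Syn3 (at most 491 reads) on the opposite strand, against at least 4828 for Timp3 in the 13 libraries. Timp2 overlaps Cep295nl (at most 327 reads) on the same strand. Adamts9 overlaps 3 listed noncoding genes on the opposite strand with at most 553 reads each.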

How the data were processed

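RNA was sequenced from sorted cells in 16 libraries. The authors deposited 1 signal per gene and library, which they named CPM. Trimmomatic, STAR, HTSeq and edgeR and the GRCm38 (mm10) build are named, with no version, per the notes on processing from the submitters. Values were whole multiples of 1 constant per library (100% within 0.01 read), which gave back read counts, and columns summed to 297624 to 177049106 where plain CPM, assumed in the design, would sum alike. Columns are numbered 1, 2, 3 and 5 per group and labels 1 to 4, so column 5 took its group from its name, and library numbers here are those of columns.

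A gene was tested if 4 or more libraries had a value of 1 or higher. Limma-trend (limma 3.58.1, R 4.3.3) was fitted on log2(value + 1) to the 4 groups, over the 13 libraries with reads on 10000 genes or more. It called 446 genes for MI against sham at P56, 0 at P1, 63 for the difference between these responses, 1716 for age in sham and 697 for age after MI. In the same order, edgeR 4.0.16 (quasi-likelihood) on the recovered counts called 341, 0, 44, 1407 and 486, and DESeq2 1.42.0 called 866, 7, 324, 2148 and 1024. Other alternatives used all 16 libraries, a minimum value of 5, no minimum, a pseudocount of 0.25 or 4, median-of-ratios or quantile scaling, only the groups compared, a block for replicate number, or 1 library fewer. The limma fit was run on simulated counts, with the same dispersion for all genes, to check that changes put in were recovered in direction and size. It does not give the rate of missed or false calls in the real libraries. Exon lengths came from GENCODE M21. Named related genes had a call and a mean of 1 or higher, at most 4 per list and comparison by p (some are not reported here), and likeness is Pearson's r among genes with a mean of 5 or higher. Members and lists were chosen with earlier results of these data known.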

Additional observations from a re-analysis of the deposited data

How the results depend on the processing

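Under 24 alternatives (23 for the difference between responses, where all groups are needed), Timp1 between MI P56 and sham P56 and Adamts1 and Adamts4 between sham P56 and sham P1 kept their direction and their call. Of the 9 genes, 1 to 2 were called between MI P56 and sham P56 in the fits that left out 1 library each, and 0 to 1 in the difference between responses, where DESeq2 also called 1. Between sham P56 and sham P1, 2 were called with all 16 libraries and 2 to 5 with 1 library left out. Between MI P56 and MI P1, 0 were called with all 16 libraries, 3 with edgeR and 3 to 5 with 1 library left out. With the replicate block, 1, 0, 0, 3 and 4 genes were called in the 5 comparisons (MI P56 against sham P56, MI P1 against sham P1, their difference, age in sham and age after MI). Of 15 pairs of same-numbered libraries, 1 had deviations from the group means correlated over 0.1 (r of -0.32 to 0.135). With 2 to 4 libraries per group, taking out the group means itself sets part of these r. They therefore cannot show whether same-numbered libraries were paired. Timp3 after MI and Adamtsl3 in sham were not called with the block.

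Some differences that were not called changed sign. Between MI P1 and sham P1 this held for Mmp2 (0.00748) and Mmp14 (-0.11) with all 16 libraries, for Mmp14 with median-of-ratios scaling (-0.011), and for Mmp14 (-0.18) and Adamts4 (-0.11) with the replicate block. With all 16 libraries it also held for Timp1 between sham P56 and sham P1 (0.165) and Mmp2 between MI P56 and MI P1 (-0.0569). With 1 library left out, the log2 differences between MI P56 and sham P56 ran from -0.136 to 0.33 for Adamts9, from -0.125 to 0.583 for Adamtsl3 and from -0.291 to 0.673 for Mmp2. Between MI P1 and sham P1 they ran from -0.0374 to 0.954 for Adamts1, from -0.208 to 0.241 for Mmp14, from -0.488 to 0.237 for Mmp2 and from -0.221 to 0.21 for Timp3. For Mmp2 they ran from -0.166 to 0.798 in the difference between responses, from -0.673 to 0.241 for age in sham and from -0.227 to 0.487 for age after MI, and for Mmp14 from -0.423 to 0.0176 for age after MI. The cause was not tested.

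Over all genes, limma called 446 between MI P56 and sham P56, against 23 with 16 libraries, 153 with only these groups, and 143 to 645 with 1 library left out. It called 63 in the difference between responses, against 1 with 16 libraries, 34 with a pseudocount of 4, 42 with no filter, 8 with the block and 1 to 228 with 1 library left out. Between sham P56 and sham P1 it called 1716, against 518 with 16 libraries, 728 with only these groups and 644 to 2270 with 1 left out, and after MI 697, against 14, 1136 and 317 to 1344. Between MI P1 and sham P1 it called 0, against 8 with only these groups, 2 with a pseudocount of 0.25 or quantile scaling, 1 with the minimum of 5 and 0 to 2 with 1 left out. With 16 libraries the median of all genes moved to -0.165, 0.39, -0.504, 0.358 and -0.181 in the 5 comparisons in the order above.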
